A study of Oryza sativa with 14 samples.

Results

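RBCS, RCABP89 and PORB are 3 nuclear genes of the rice photosynthetic apparatus, measured here in seedlings that had grown in the dark. They were chosen by symbol or synonym in the annotation of the array and its gene table, and where a gene had several probe sets the brightest on average was used. They are 3 of the 17905 genes that had a probe set of their own. RBCS (gene LOC4351966, 4 probe sets) encodes a small subunit of rubisco, the enzyme that fixes CO2. RCABP89 (LOC4333359, 1 probe set) encodes a light-harvesting chlorophyll a/b-binding protein. PORB (LOC4349004, 1 probe set) encodes a protochlorophyllide oxidoreductase, which makes chlorophyllide from protochlorophyllide and needs light to do so.

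RNA was hybridised to 14 one-colour Affymetrix rice arrays, and no group had more than 1 array. Roots and shoots of WT, mhz4 and mhz5 and roots of mhz1 were each taken in air and with ethylene. The 3 mutants are known for altered responses to ethylene. All seedlings were etiolated. Per the labels, germination took 2 days in darkness at 37 °C, and the ethylene groups received 10 ppm of the gas for 8 h, also in darkness, at 28 °C and at an age of 3 days. Air-grown seedlings were the controls, and how long and at what temperature they were held is not given. The mutant alleles are not given in the labels, and both WT root arrays carry a mark in their titles (mb) that no other array has and that is not explained. A pool size is not given either, so each array is 1 sample of unknown spread between seedlings.

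Flowering plants need light to make chlorophyll. In the dark, shoot plastids become etioplasts, which hold protochlorophyllide bound to protochlorophyllide oxidoreductase in place of thylakoids, and many photosynthesis genes are held low until light arrives. Roots normally form colourless plastids. Ethylene acts on etiolated seedlings, and from published work MHZ4 and MHZ5 act in the synthesis of abscisic acid and of carotenoids, which share plastid pathways, while MHZ1 encodes a histidine kinase.

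The deposited intensities were brought to a common mean of 500 per array, and signals are on that scale. A signal under 200 is treated as too dim to compare, and no difference is given where both arrays were below it. Differences were taken between log2(signal + 32) values, where the added constant shrinks the change of dim probe sets. The median signal of an array lay between 63.0 and 69.7, and 19298 to 19824 probe sets reached 200. In bulk tissue, fewer cells that express a gene and less RNA per cell cannot be told apart.

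The 3 genes were bright in all 6 shoots and dim in nearly all 8 roots, as the plot of signals by array shows. In shoots RBCS read 35489 in air and 39624 in ethylene in WT, 49009 and 44440 in mhz4, and 49354 and 35296 in mhz5. RCABP89 read 1739 and 1895 in WT shoots, 8990 and 6347 in mhz4 shoots, and 4806 and 2415 in mhz5 shoots. PORB read 1998 and 2560 in WT shoots, 6487 and 4168 in mhz4 shoots, and 4514 and 2694 in mhz5 shoots. For RCABP89 and PORB the lowest shoot array was WT in air and the highest was mhz4 in air. RCABP89 spanned 5.17-fold over the shoots and PORB 3.25-fold, against 1.40-fold for RBCS.

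RBCS stood at 65.5% to 98.5% of the highest signal on the shoot arrays, at rank 2 to 21 from the top. An array responds little near the top of its range, so differences of RBCS between shoots may be compressed, which was not tested.

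**Figure D1:**
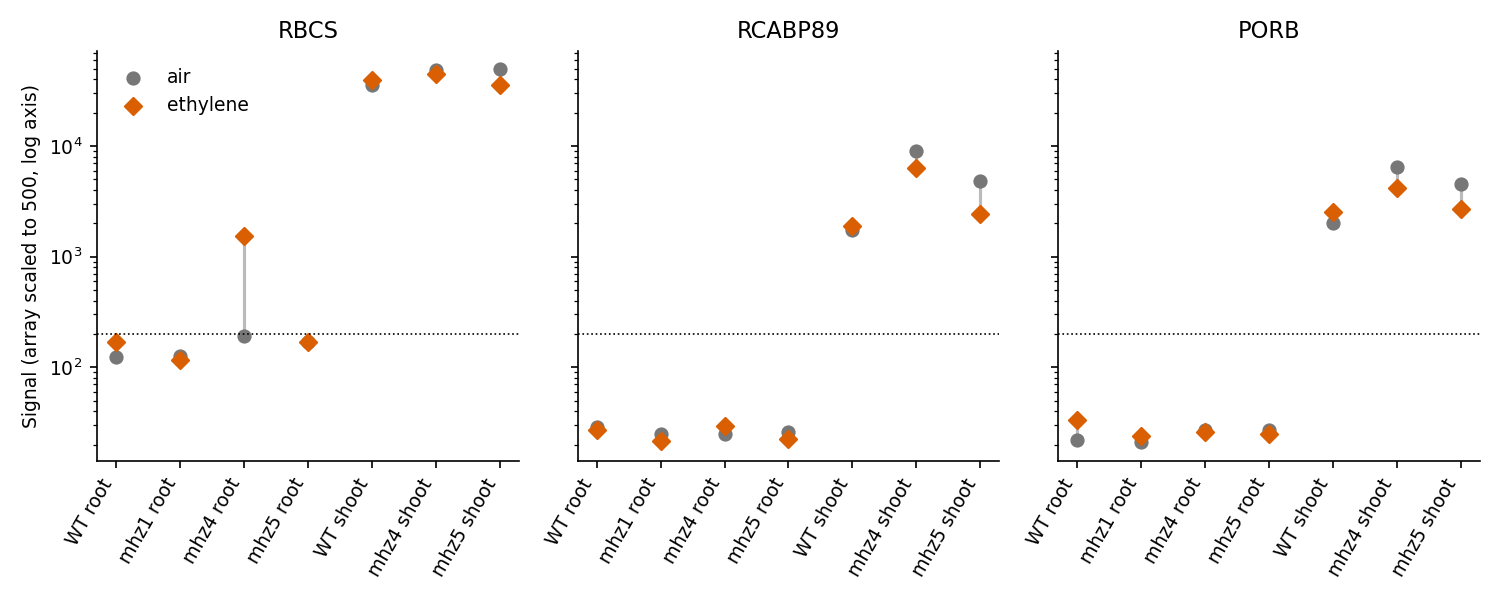
Signal of RBCS, RCABP89 and PORB (log axis, each array scaled to a mean of 500) on each of the 14 arrays, with grey circles for air, orange diamonds for ethylene, a line joining the pair of a genotype and tissue, and a dotted line at 200. All shoot signals lie above all root signals, and the mhz4 root array with ethylene (1528) is the only root point above the dotted line.

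In roots RCABP89 ranged from 21.7 to 29.6 and PORB from 21.1 to 33.5, and neither reached 200 on any of the 8 arrays. RBCS read 123 and 168 (air and ethylene) in WT roots, 128 and 116 in mhz1, 193 and 1528 in mhz4, and 168 and 171 in mhz5. Only the mhz4 root array with ethylene passed 200. The lowest shoot signal exceeded the highest root signal 23.1-fold for RBCS, 58.7-fold for RCABP89 and 59.6-fold for PORB. The tissues thus did not overlap for any of the 3 genes, and the share of all probe sets without overlap was not counted.

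With 1 array per group there is no replicate within a group. Tests therefore came from 1 limma fit over the 14 arrays, in which an ethylene effect was repeated over genotypes and a genotype effect over both gases, with p-values adjusted by the Benjamini-Hochberg method over 23190 probe sets and a threshold of 0.05. The spread in this fit is that of the response among genotypes plus array noise, not that between seedlings.

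All 3 genes fell in roots against shoots. Over WT, mhz4 and mhz5 the root minus shoot difference was -7.24 (SE 0.342, limma adjusted p = 9.6e-08) for RBCS, -5.96 (SE 0.123, adjusted p = 8.21e-10) for RCABP89 and -5.89 (SE 0.135, adjusted p = 1.48e-09) for PORB. Lower signals in roots were called for 32.4% of all probe sets and higher ones for 49.9%, so a difference between these organs is frequent. The median over all probe sets was 0.16 with signs kept. Rises and falls offset each other in it, so it does not give a typical size. The root values of RCABP89 and PORB lie at the dim end of the array, so these differences are set by the shoot level and the constant of 32. Both genes passed the filter on dim probe sets through the shoot arrays alone.

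The other listed photosynthesis genes had the same organ pattern. They were taken from lists matched by symbol or synonym, which the gene table allows for only part of each pathway. The lists also hold the 3 members, and list counts and medians here and below include them. RCABP89 is under light harvesting, RBCS under carbon fixation and PORB under chlorophyll synthesis. All 3 light-harvesting genes, all 7 of electron transport, both carbon fixation genes tested, all 8 chlorophyll synthesis genes tested and all 6 regulators of light responses or plastids fell in roots. The medians were -6.80, -5.75, -7.14, -3.35 and -2.01 in that order. Many of these genes, such as RCABP89, PORA and PORB, reached 200 on the 6 shoot arrays alone and passed the filter through them. The listed genes RBCS1 and CHLI, under 200 on all arrays, were not tested. The shared direction was thus partly fixed by the filter. GluTR and GSA, which act at the first steps of tetrapyrrole synthesis, had smaller differences of -2.27 and -2.41 (limma adjusted p = 3.57e-07 and 2.56e-08). Both stayed above 200 on all 14 arrays. PORA, which encodes the other protochlorophyllide oxidoreductase, differed by -7.26 (adjusted p = 1.29e-10), read 30.5 to 43.4 in roots and 7492 to 13632 in shoots.

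In shoots of mhz4, RCABP89 and PORB stood higher than in WT. In air RCABP89 was 5.17-fold and PORB 3.25-fold higher, and with ethylene the ratios were 3.35 and 1.63. Both mhz4 arrays lay above both WT arrays for each gene, and the share of all probe sets for which they do was not counted. The mean difference rose by 2.04 (SE 0.214, limma adjusted p = 0.000912) for RCABP89 and 1.19 (SE 0.234, adjusted p = 0.00898) for PORB. The dim root arrays enter the pooled spread with residuals of at most 0.07 (RCABP89) and 0.10 (PORB) in size. On shoot arrays the residuals reached 0.29 and 0.35. The roots thus lower the pooled spread behind the shoot tests of both genes, here and below. The call for PORB rested on the air array of mhz4 shoots, since without that array the difference was 0.97 (adjusted p = 0.106).

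RBCS read 1.38-fold higher in mhz4 than in WT shoots in air and 1.12-fold with ethylene. Its fitted difference of 0.32 (SE 0.593, limma adjusted p = 0.728) did not pass. The SE of RBCS is wide because the mhz4 root pair enters the pooled spread, with residuals of -1.01 and 1.01 against at most 0.44 in size on the other 12 arrays. With the 6 shoot arrays alone the difference was 0.32 with an SE of 0.152 (adjusted p = 0.203). Thus 2 of the 3 genes were called higher in mhz4 shoots, where 12.6% of all probe sets were.

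Of the 26 listed genes tested, 10 (38.5%) rose in mhz4 shoots. RCABP89 and PORB are among the 10, and all 3 members are among the 26. By list, 2 of 3 light-harvesting genes, 3 of 7 electron transport genes, 0 of 2 carbon fixation genes, 3 of 8 chlorophyll synthesis genes and 2 of 6 regulators rose, and 0 members of these lists fell. Without the filter on dim probe sets 1 of 6 regulators was called. List medians were 0.55, 0.56, 0.55, 0.65 and 0.23, against 0.00 over all probe sets. GluTR, the glutamyl-tRNA reductase that starts the pathway, read 1496 and 1672 in WT shoots and 4695 and 3385 in mhz4 shoots (1.32, SE 0.227, limma adjusted p = 0.0054). CHLH, a subunit of the magnesium chelatase that commits the pathway to chlorophyll, read 1043 and 1178 in WT and 3159 and 2272 in mhz4 (1.25, SE 0.238, adjusted p = 0.00795). In both cases the mhz4 arrays exceeded the WT arrays without overlap, and how many of all probe sets do so was not counted.

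GLK1, a transcription factor known in plants for activating nuclear photosynthesis genes, read 785 and 737 in WT shoots and 2528 and 1731 in mhz4 shoots (1.42, SE 0.177, limma adjusted p = 0.00168). Its relative GLK2 read 2414 and 2279 in WT and 2896 and 2360 in mhz4 shoots and was not called. PSAH of photosystem I (1.16, SE 0.301, adjusted p = 0.0249), LFNR1, a ferredoxin-NADP reductase (1.04, SE 0.253, adjusted p = 0.0199), and petC, the Rieske protein of the cytochrome b6f complex (0.93, SE 0.248, adjusted p = 0.0274), also rose. CAB2R and PETE, a light-harvesting gene and the plastocyanin gene, were among the brightest of the set and differed by 0.27 (adjusted p = 0.583) and 0.04 (adjusted p = 0.952).

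**Figure D2:**
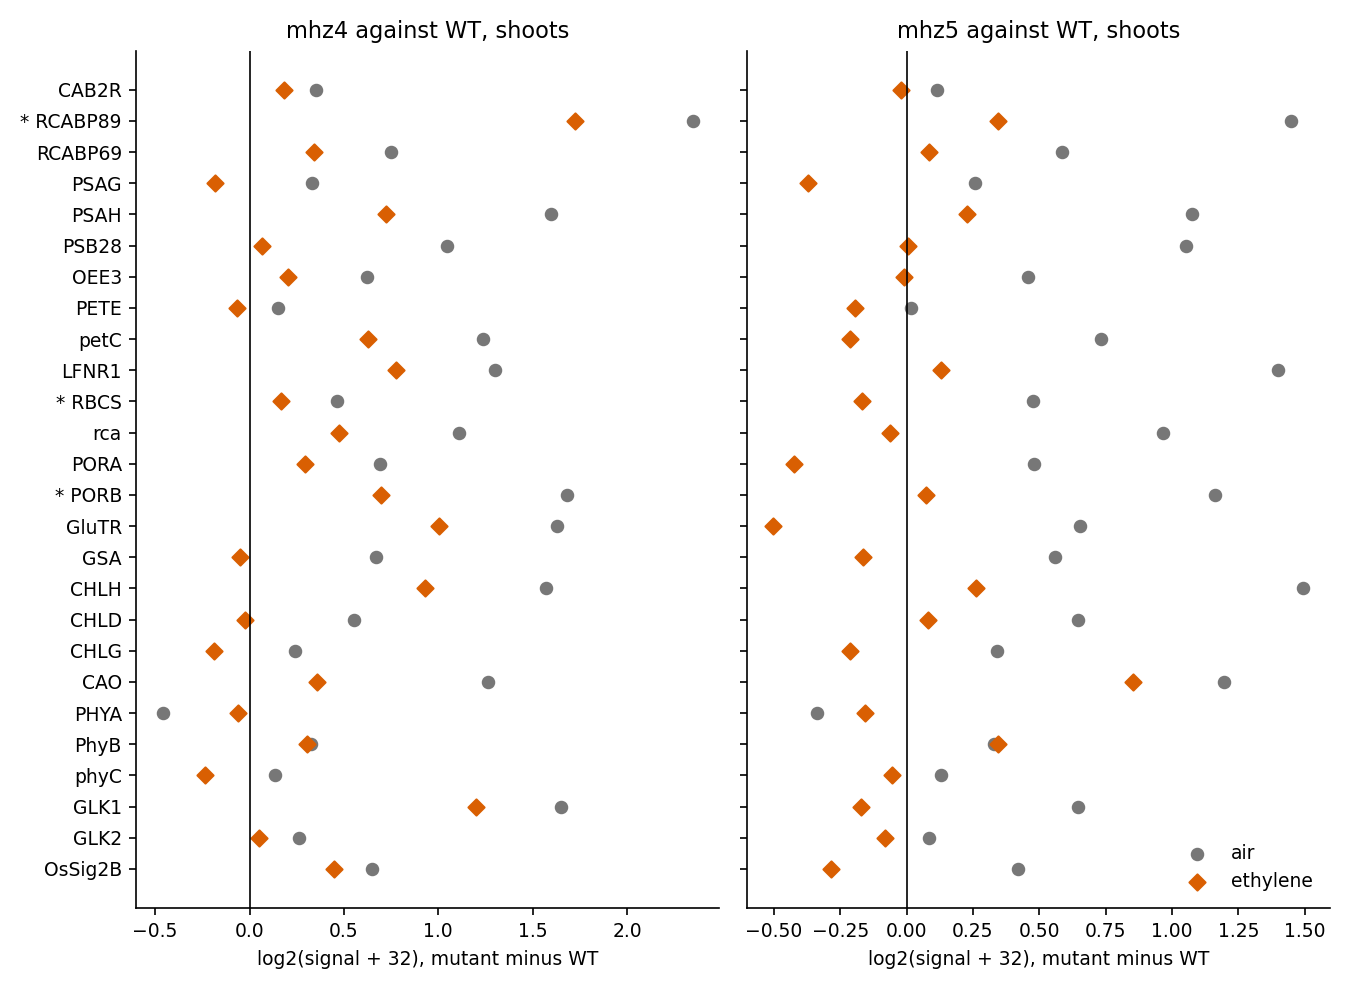
Difference between mutant and WT shoots on the log2(signal + 32) scale (x axis) for the 26 listed genes that reached 200 in shoots (y axis, asterisks on RBCS, RCABP89 and PORB), 1 pair of arrays per point, grey circles for air and orange diamonds for ethylene. In air 25 of 26 genes are right of 0 in each mutant, and with ethylene 19 of 26 are in mhz4 and 10 of 26 in mhz5.

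In shoots of mhz5, RCABP89 was 2.76-fold and PORB 2.26-fold above WT in air, and 1.27-fold and 1.05-fold with ethylene. RCABP89 rose by 0.90 over both gases (SE 0.214, limma adjusted p = 0.0258). PORB differed by 0.62 (SE 0.234, adjusted p = 0.0986) and RBCS by 0.15 (SE 0.593, adjusted p = 0.875). Higher signals in mhz5 shoots were called for 9.35% of all probe sets. The call for RCABP89 was lost without the WT shoot air array (0.47, adjusted p = 0.181), without the mhz5 shoot air array (0.50, adjusted p = 0.197) and with the 6 shoot arrays fitted alone (0.90, adjusted p = 0.0815). PORB passed without the WT shoot ethylene array (1.14, adjusted p = 0.00484).

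Of the 26 listed genes tested, 3 (11.5%) rose in mhz5 shoots, close to the 9.35% of all probe sets. They were 1 of 3 light-harvesting genes (RCABP89 itself), 0 of 7 electron transport genes, 0 of 2 carbon fixation genes, 1 of 8 chlorophyll synthesis genes (CHLH, 0.88, SE 0.238, limma adjusted p = 0.0384) and 1 of 6 regulators (PhyB, the phytochrome B photoreceptor gene, 0.34, SE 0.09, adjusted p = 0.0368). Without the filter on dim probe sets 0 of 6 regulators were called. The medians were 0.34, 0.26, 0.30, 0.28 and 0.05 against 0.02 over all probe sets.

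The direct comparison of both mutants put mhz5 below mhz4. For RCABP89 both mhz5 arrays lay below both mhz4 arrays, a separation whose share over all probe sets was not counted. The gene fell by 1.14 (SE 0.214, limma adjusted p = 0.0479), where 0.539% of all probe sets were called lower. That call was close to the threshold and was lost in 11 of 14 fits that left out 1 array, with a pseudocount of 16 (adjusted p = 0.0552), without the variance trend (adjusted p = 0.0537) and with the shoot arrays alone (adjusted p = 0.206). PORB differed by -0.57 (SE 0.234, adjusted p = 0.259), with overlapping arrays, and RBCS by -0.16 (SE 0.593, adjusted p = 0.92). GLK1 and GluTR fell as well, by 1.19 (SE 0.177, adjusted p = 0.0192) and 1.24 (SE 0.227, adjusted p = 0.0434).

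Markers of roots were unequal among the shoots. The summed signal of 12 root-expressed genes was 7999 to 17120 in WT and mhz4 shoots, 56338 and 76253 in mhz5 shoots and 64511 to 166292 in roots. In mhz5 shoots most of that sum came from the nicotianamine synthase genes NAS1 (26618 and 36050) and NAS2 (19198 and 26290), which serve iron uptake. The iron uptake genes YSL15 (736 and 1468), IRT1 (2325 and 3978) and IRT2 (427 and 972) were also at their highest among shoots there. In mhz5 against WT shoots 6 of the 12 genes rose, where 9.35% of all probe sets did. AMT1-2 (15.2 and 24.9), NRT2.2 (56.7 and 75.1) and NRT2.3 (68.0 and 107) stayed under 200 in mhz5 shoots. In roots against shoots 11 of the 12 rose and 1 fell. The silicon transporter genes Lsi1 and Lsi2, whose known site is the root, read 937 and 582 (Lsi1) and 17.7 and 18.6 (Lsi2) in mhz5 shoots, within or below the 613 to 1069 and 15.6 to 55.9 of the other shoots, and at least 17429 and 3825 in roots. The seed and endosperm list summed to 3988 and 4607 in WT, 6824 and 6263 in mhz4 and 5401 and 5348 in mhz5 shoots, in the same order as RCABP89. In roots, where RCABP89 was dim, the list summed to 4097 to 4983. Most of each sum came from 1 gene, GLB1, at 3170 to 5398 in shoots and 3243 to 3923 in roots. Apart from GLB1 and GLUA-2, the genes of this list stayed under 200 on all arrays. Of its 13 genes 2 were bright enough to be tested, and both rose in mhz4 shoots, GLUA-2, a glutelin gene, by 0.88 (SE 0.165, limma adjusted p = 0.00748) and GLB1, a globulin gene, by 0.59 (SE 0.0947, adjusted p = 0.00423). In mhz5 shoots GLB1 rose by 0.33 (SE 0.0947, adjusted p = 0.048) and GLUA-2 differed by 0.48 (adjusted p = 0.0788). The part of these lists in the results of RCABP89 and PORB was not tested.

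The ethylene response of shoots had opposite signs in WT and in the mutants. In WT shoots RCABP89 read 1.09-fold and PORB 1.28-fold higher with ethylene (0.12 and 0.35), and RBCS 1.12-fold higher (0.16). In mhz4 shoots the differences were -0.50 for RCABP89, -0.63 for PORB and -0.14 for RBCS. In mhz5 shoots they were -0.98, -0.74 and -0.48. All 3 genes were thus higher in WT and lower in both mutants, each from 1 pair of arrays.

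With 1 ethylene term for all shoots, 0 of the 3 genes were called, against 2.2% of all probe sets. The mean differences were -0.45 for RCABP89 (SE 0.174, limma adjusted p = 0.246, unadjusted p = 0.0305), -0.34 for PORB (SE 0.191, adjusted p = 0.429) and -0.16 for RBCS (SE 0.484, adjusted p = 0.912). Leaving out either WT shoot array left the mutants to set the estimate, and RCABP89 (-0.74, adjusted p = 0.0345 and 0.0346) and PORB (-0.69, adjusted p = 0.0282 and 0.0281) then passed.

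A fit with separate ethylene terms for WT and for mutant shoots was added after these values had been seen. Its WT term comes from 1 air and 1 ethylene array and is fitted exactly, so WT shoots add no spread of their own. The p-values for WT shoots and for mutants minus WT thus take their spread from the other arrays. In mutant shoots RCABP89 fell by 0.74 (SE 0.13, limma adjusted p = 0.0336) and PORB by 0.69 (SE 0.109, adjusted p = 0.0265), where 2.18% of all probe sets fell. RBCS differed by -0.31 (SE 0.633, adjusted p = 0.841). In WT shoots 0 of the 3 genes were called, against 0.742% of all probe sets, with adjusted p of 0.857 for RCABP89, 0.407 for PORB (unadjusted 0.0556) and 0.965 for RBCS.

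The test of the difference itself, mutants minus WT, gave -0.86 for RCABP89 (SE 0.226, limma adjusted p = 0.211), -1.04 for PORB (SE 0.189, adjusted p = 0.125) and -0.47 for RBCS (SE 1.1, adjusted p = 0.914). None of the 3 passed, in a contrast that called 0.0992% of all probe sets. The unadjusted p of RCABP89 was 0.00626 and that of PORB 0.000856. With the 6 shoot arrays alone PORB passed (-1.04, SE 0.155, adjusted p = 0.0387). In that fit a gene's own spread comes only from how mhz4 and mhz5 differ in their ethylene response. Leaving out a single array of mutant shoots ended the call of the fall in mutant shoots for both genes (adjusted p from 0.0759 to 0.281 for RCABP89 and from 0.142 to 0.259 for PORB). Leaving out a root array of WT, mhz1 or mhz4 ended it for RCABP89 as well (adjusted p from 0.0517 to 0.069), and one of mhz1 for PORB (adjusted p = 0.0569 and 0.0573).

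In 2 of the larger lists most genes had the same signs as the 3 members. PORB is itself 1 of the 8 chlorophyll synthesis genes counted. Ethylene was the higher array of the WT shoot pair for 7 of 7 electron transport genes and 7 of 8 chlorophyll synthesis genes, with medians of 0.38 and 0.22. In mhz4 shoots it was the lower array for 7 of 7 and 8 of 8 (medians -0.23 and -0.47), and in mhz5 shoots for 6 of 7 and 8 of 8 (medians -0.56 and -0.56). The 6 regulators differed from this in WT shoots, where 2 were higher and 3 lower of the 5 that reached 200 (median -0.08), and 5 of 6 were lower in each mutant. The median of all probe sets was within 0.02 of 0 in each pair. These are counts over genes of single array pairs, and genes of 1 array are not independent.

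In the fit with separate terms, 7 of the 26 listed genes (26.9%) fell with ethylene in mutant shoots, and 0 rose. Over all probe sets 2.18% fell and 1.18% rose. By list, 1 of 3 light-harvesting genes (RCABP89 itself) and 1 of 7 electron transport genes fell. So did 4 of 8 chlorophyll synthesis genes and 1 of 6 regulators, but 0 of 2 carbon fixation genes. The chlorophyll synthesis genes were PORB, GluTR (-0.73, SE 0.149, limma adjusted p = 0.0489), GSA (-0.47, SE 0.0644, adjusted p = 0.0214) and CHLH (-0.77, SE 0.153, adjusted p = 0.0465). The regulator was GLK1 (-0.72, SE 0.122, adjusted p = 0.0312), which read 2528 and 1731 in mhz4 and 1246 and 650 in mhz5 shoots. The electron transport gene was PSB28, of photosystem II assembly (-0.62, SE 0.104, adjusted p = 0.0302). PORA read 13632 and 12343 in mhz4 shoots, 11791 and 7492 in mhz5 shoots, and 8437 and 10056 in WT shoots, and was not called.

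**Figure D3:**
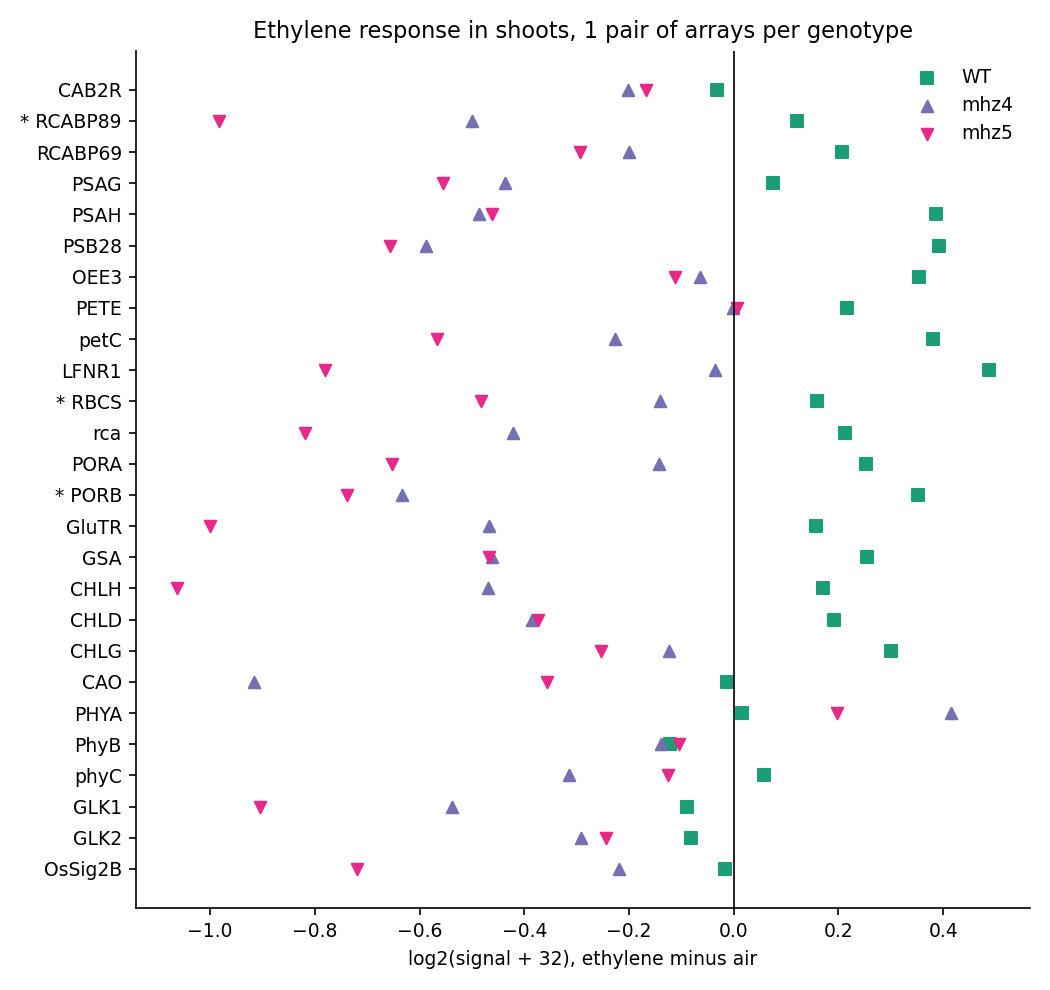
Ethylene minus air on the log2(signal + 32) scale (x axis) in shoots of WT (squares), mhz4 (upward triangles) and mhz5 (downward triangles) for the 26 listed genes (y axis, asterisks on RBCS, RCABP89 and PORB), 1 pair of arrays per point. WT is right of 0 for 20 genes, mhz4 left of 0 for 25 and mhz5 left of 0 for 24.

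Further probe sets bear on rubisco in shoots, where the main RBCS probe set is near the top of the range. Of the other RBCS probe sets, 1 read 364 to 609 in shoots and 179 to 278 in roots, 1 read 738 to 1443 in shoots and 12.5 to 21.3 in roots, and 1 stayed at or under 24 on all arrays. Probe set names that end in x mark probes that may bind related transcripts, as in the main RBCS probe set and that of PORB, so paralogs may share these signals. RBCS1, a paralog, read 12.8 to 20.8 on all 14 arrays with its own probe set.

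Another 5 probe sets are annotated to 3 genes each, RBCS1 among them, and name no single gene. They were looked at after the values above were known. One of them read 6735 and 5671 in WT shoots, 17486 and 10944 in mhz4 shoots, and 17528 and 7579 in mhz5 shoots. A second one, whose name marks the same transcript cluster, read 2189 and 2270, 8378 and 4052, and 8429 and 2692. In these 2 probe sets, which lie below the top of the range, both mutants in air stood above the other shoot arrays and the ethylene array of each mutant was lower than its air array. Another one read 10738 and 12669 in WT shoots, 23645 and 21674 in mhz4 shoots, and 21713 and 14627 in mhz5 shoots. There mhz5 in air was barely above mhz4 with ethylene. The brightest read 31044 and 31569, 35070 and 33151, and 32584 and 28995, with mhz5 in air below mhz4 with ethylene. The last was under 200 on all arrays.

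The rise of RBCS in mhz4 roots with ethylene was part of how this set was chosen and is given as a description. The signal went from 193 to 1528, a ratio of 7.92 and a difference of 2.79, the rank 8 difference of the 19944 probe sets that reached 200 in that pair. In that pair 1.14% of probe sets were at least 2-fold higher with ethylene and 1.15% at least 2-fold lower. In WT, mhz1 and mhz5 roots all signals of the main RBCS probe set were under 200. Its ethylene signal in mhz4 roots was 3.44% of that in mhz4 shoots with ethylene.

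The fitted root values of RBCS contain that pair and are given without a test. The ethylene effect over 4 genotypes in roots was 0.77 (SE 0.419), the mhz4 minus WT difference in roots 1.75 (SE 0.593), and the ethylene effect in shoots minus that in roots -0.92 (SE 0.64). Without the mhz4 root array with ethylene the ethylene effect in roots was 0.09 and the mhz4 difference 0.40. Comparisons with WT roots also carry the unexplained mark. For mhz1 and mhz5 against WT in roots no value is given, since all 3 genes were under 200 on all of those arrays.

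Over both gases, few listed genes differed between mhz4 and WT roots. CAB2R rose by 1.29 (SE 0.331, limma adjusted p = 0.0362), as 1 of 3 light-harvesting genes, and phyC and PHYA, both phytochrome genes, rose by 0.83 (SE 0.131, adjusted p = 0.00693) and 0.50 (SE 0.141, adjusted p = 0.0485), as 2 of 6 regulators, where 6.71% of probe sets rose. PSAG of photosystem I fell by 0.98 (SE 0.212, adjusted p = 0.0201), as 1 of 7 electron transport genes, where 8.16% of probe sets fell. PSAG and phyC were dim here, with both ethylene arrays under 200. PSAG read 208 and 95.8 in WT and 64.7 and 49.4 in mhz4 roots, and phyC 108 and 109 against 249 and 190. A second PSAG probe set, under 200 throughout, was not lower in mhz4 roots (95.2 and 117 in WT, 127 and 140 in mhz4). The carbon fixation and chlorophyll synthesis lists had 0 calls, and the mean ethylene effect over the 4 genotypes in roots had 0 calls in all 5 lists, where 4.92% of probe sets were called.

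Of the listed genes of photosynthesis and chlorophyll synthesis, regulators aside, 8 reached 200 in the mhz4 root pair. Apart from RBCS, the plastocyanin gene PETE read 169 in air and 615 with ethylene, CAB2R 251 and 463, CHLG (chlorophyll synthase) 915 and 1064, GluTR 466 and 518, and GSA 764 and 807. Lower with ethylene were CHLD, of the magnesium chelatase, with a ratio of 0.885, and petC with 0.956 (267 and 255). RBCS and PETE were the 2 genes at least 2-fold higher. In WT roots PETE read 173 and 288, while CAB2R stayed under 200 at 77.5 and 181, as it did in mhz1 (79.5 and 73.4) and mhz5 roots (134 and 73.1). In mhz1 and mhz5 roots PETE was under 200 as well.

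The others of these genes stayed under 200 on both mhz4 root arrays, and their signals are given with no difference. The rca gene, which encodes rubisco activase, read 32.1 and 130, PSAH 59.0 and 112, and OEE3 of the oxygen-evolving complex 40.2 and 78.6. PORA read 31.5 and 33.3, PORB 27.1 and 26.0, RCABP89 25.0 and 29.6, and RCABP69 33.9 and 40.4. Among the genes that reached 200, the gain in the pair as a share of the median shoot signal was 3.18% for RBCS, 1.59% for PETE and 0.639% for CAB2R, and 4.35% for CHLG, 2.58% for GluTR, 0.989% for GSA, -0.116% for petC and -1.24% for CHLD. RBCS, PETE and CAB2R have shoot signals toward the top of the range.

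**Figure D4:**
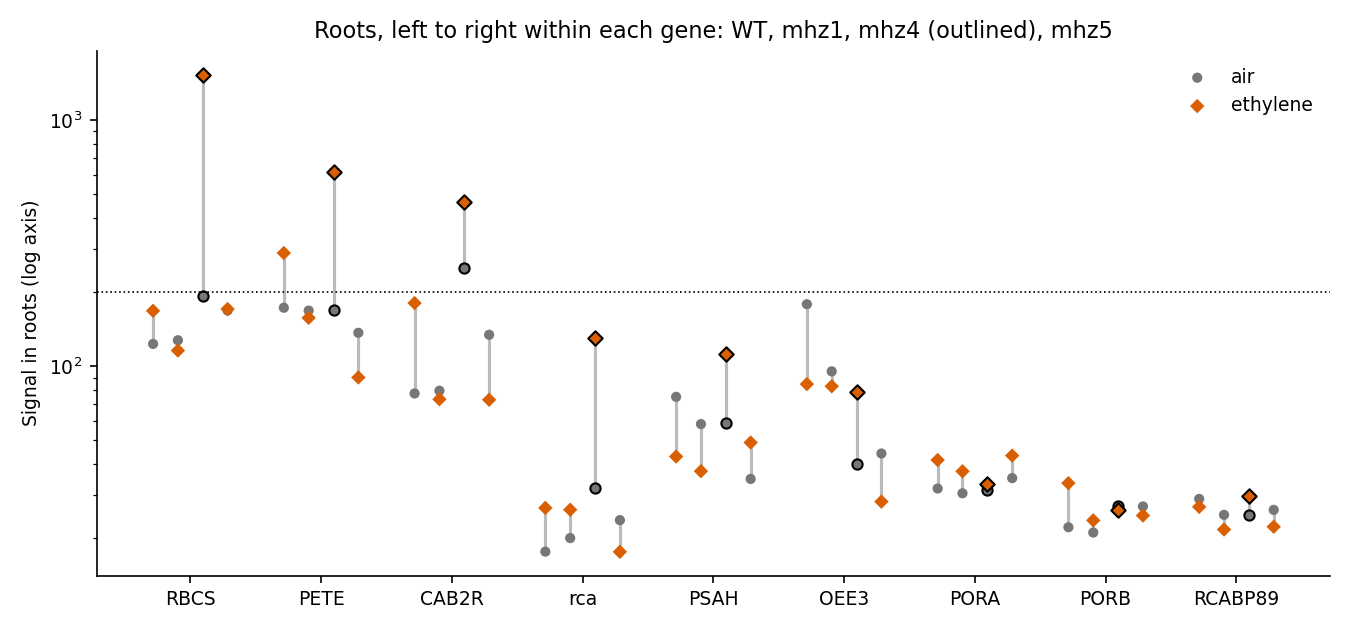
Signal in roots (log axis) of 9 photosynthesis genes in WT, mhz1, mhz4 (outlined) and mhz5, grey circles for air and orange diamonds for ethylene, joined within a genotype, with a dotted line at 200. In mhz4, RBCS, PETE and CAB2R end above the line, rca reads 130 with ethylene, and PORA, PORB and RCABP89 stay under 50.

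A set of shoot-enriched probe sets was read in the same root pairs. It was defined without any mhz4 array, as the 779 probe sets at least 8-fold brighter in shoots than in roots in WT and in mhz5, so WT and mhz5 root arrays helped to choose it. In mhz4 roots 171 of them reached 200, with a median difference of -0.02. Of these, 9 (5.26%) were at least 2-fold higher and 13 at least 2-fold lower with ethylene. The shares over all probe sets of that pair were 1.14% and 1.15%. In WT roots 14 of 196 (7.14%), in mhz1 roots 7 of 179 (3.91%) and in mhz5 roots 3 of 159 (1.89%) were at least 2-fold higher. The shares over all probe sets there were 1.56%, 1.05% and 0.853%. The summed signal of the 779 probe sets was 142319 in air and 138815 in ethylene in mhz4 roots. The 9 higher in mhz4 included the main RBCS probe set, PETE and 1 of the rubisco probe sets with several genes, which read 261 and 989.

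The patterns of the 3 genes over the 14 arrays were set mostly by tissue. RBCS was most like rca (Pearson r = 0.994), CAB2R (r = 0.993), LOC4344899 (r = 0.993), PETE (r = 0.992) and LOC4351694 (r = 0.99), and 6 of 16653 probe sets with a single gene had r of at least 0.99. That array pair, in which RBCS stands apart, is part of the measure of likeness. For RCABP89 290 probe sets and for PORB 665 had r of at least 0.99, which a step between tissues alone can give. The closest were LOC4341496 for RCABP89 (r = 0.999) and LOC4331495 for PORB (r = 0.999).

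Over the 6 shoot arrays RCABP89 and PORB had r = 0.969, RBCS and PORB r = 0.917 and RBCS and RCABP89 r = 0.866. These are descriptions over 6 arrays that share genotypes and scaling. Most like RCABP89 in shoots were LOC4330644 (r = 0.998), SPL4 (r = 0.996) and HO1 (r = 0.996), which encodes a haem oxygenase that makes the precursor of the phytochrome chromophore. Most like RBCS were LOC4340311 (r = 0.997) and APX5, an ascorbate peroxidase gene (r = 0.995), and most like PORB were LOC4329783 (r = 0.999) and LOC4330883 (r = 0.997).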

How the data were processed

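The authors deposited linear intensity values, 1 for each probe set on each array, and the submitters' processing notes name MAS5. Its version, background settings and scaling are not stated in the labels or headers. Of 57381 probe sets, 123 controls were left out. Array means without the extreme 2% at either end were set to 500, which took factors of 3.87 to 4.10. The platform annotation gave 1 gene to 22436 probe sets, several to 95 and none to 34727. Gene lists were matched by symbol or synonym in the current rice gene table, which holds no descriptions.

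limma 3.58.1 (R 4.3.3) was fitted to log2(signal + 32) of the 23190 probe sets that reached 200 on 2 or more arrays. Its 9 terms were 7 for genotype and tissue and 2 for ethylene, 1 per tissue. It had 5 residual degrees of freedom, a prior of 3.36 with a variance trend, and a median residual SD of 0.12. The script was tested on simulated data. Alternatives were pseudocounts of 16 and 64, no filter, quantile normalization, values as deposited, arrays of 1 tissue, no trend and leaving out each array. The number of arrays limits the precision.

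The genes and lists were chosen with earlier results of these data known. By rule the text names the members, up to 6 genes per list among those past the threshold, and the probe sets most like each member. PORA, GLK2, SGR, PHYA, the root and seed markers, the uncalled CAB2R and PETE, the genes of the mhz4 root pair and the probe sets with several genes were named after their values were seen. Sequences and promoters were not used here.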

Additional observations from a re-analysis of the deposited data

Results flagged for a closer look

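On the 8 root arrays the main RBCS probe set stood apart on 1 of them, the mhz4 array with ethylene. It read 1528 there against 116 to 193 on the others. The gap to the next array was 0.822 of the whole log2 range. RBCS was chosen with this value known, and the root arrays are 8 different groups and not replicates, so the gap is a description and no test. The rule for listing a gap would pick about 1 in 20 sets of replicates of 1 group by chance. That rate does not apply to these arrays.

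A probe set annotated to several rubisco genes, outside the main measurement, read 988.7 on the same array, against 87.5 to 261 on the other root arrays. A second such probe set read 165 there and at most 38.1 on the other root arrays. Of the other probe sets of RBCS alone, 1 read 278 on that array and 239 in mhz4 roots in air, and the others stayed under 200. What the probe sets with several genes share with the main RBCS probe set was not tested.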

How the results depend on the processing

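Every alternative kept the direction of RCABP89 and PORB in shoots and in roots against shoots. With the shoot arrays alone RCABP89 in mhz5 against WT shoots stayed at 0.897 but lost its call, and RCABP89 in mhz5 against mhz4 shoots stayed at -1.14 and lost its call there, with a pseudocount of 16 and without the trend. PORB in the ethylene effect of mutants minus WT (-1.04) passed with the shoot arrays alone. In that fit with separate ethylene terms, a gene's own spread came only from how mhz4 and mhz5 differed in ethylene response. The cause of these changes in calls was not tested.

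With the shoot arrays alone the probe sets called went from 511 to 210 for the ethylene effect, 6108 to 3536 for mhz4 against WT, 4166 to 1979 for mhz5 against WT, 304 to 109 for mhz5 against mhz4, 779 to 1369 for ethylene in mutant shoots, 172 to 662 for ethylene in WT shoots and 23 to 159 for their difference. Without the filter WT shoots had 323 and the difference 121, which was 39 with a pseudocount of 64 and 37 without the trend.

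Leaving out 1 array at a time gave these ranges. RBCS ran from -0.312 to 0.00888 for ethylene in shoots, 0.399 to 3.1 for mhz4 against WT roots, -0.0917 to 0.4 for mhz5 against WT shoots, and -0.407 to 0.0851 for mhz5 against mhz4. RCABP89 ran from -0.742 to -0.189 for ethylene in shoots, 0.465 to 1.33 for mhz5 against WT, -1.54 to -0.743 for mhz5 against mhz4, and -0.983 to -0.5 in mutant shoots. PORB ran from -0.686 to -0.141, from 0.67 to 1.71 for mhz4 against WT, 0.0984 to 1.14 for mhz5 against WT, and -0.738 to -0.635 in mutant shoots. Calls ran from 504 to 1178 for ethylene in roots, 135 to 787 in shoots, 25 to 195 for their difference, 728 to 3756 for mhz4 against WT roots, 1437 to 6289 and 745 to 4417 for mhz4 and mhz5 against WT shoots, 75 to 553 for mhz5 against mhz4, 12 to 688 in mutant shoots, 43 to 193 in WT shoots and 9 to 19 for mutants minus WT.

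Without a WT shoot array the separate ethylene terms could not be fitted. No paired analysis was possible because each group has 1 array, so there are no replicate numbers to pair, while the fit itself pairs air and ethylene within a genotype and tissue. Signals under 200 limit every root comparison of RCABP89 and PORB, and the top of the range limits RBCS in shoots.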

Other observations

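Genes of chlorophyll breakdown were compared alongside. In WT shoots 4 of 4 read higher with ethylene, by a median of 0.25. NYC1, a chlorophyll b reductase gene, read 435 and 587 in WT shoots, 995 and 889 in mhz4 shoots and 550 and 294 in mhz5 shoots, and it rose in mhz4 against WT shoots by 0.85 (SE 0.271, limma adjusted p = 0.0494). SGR, the Stay-Green gene, read 999 and 1439 in WT, 1884 and 1723 in mhz4 and 1539 and 1604 in mhz5 shoots and was not called. Thus 1 of 4 rose in mhz4 shoots, where 12.6% of all probe sets did, and 0 of 4 in mhz5 shoots, where 9.35% did.

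PHYA, the gene of the photoreceptor phytochrome A, ran against most of the listed genes: it read 8005 and 8091 in WT shoots, 5816 and 7767 in mhz4 shoots and 6325 and 7255 in mhz5 shoots, and it was not called between genotypes in shoots.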
